A study of Mus musculus with 8 samples.

Results

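The IFIT family (interferon-induced proteins with tetratricopeptide repeats) was followed in polarized gut epithelial cells stimulated with IFN-λ2 or IFN-β. Its members were taken as all probes that carry the array's gene name Ifit1, Ifit2, Ifit3, I830012O16Rik or Gm14446, which are 6 of 39429 non-control probes and 5 of 31791 gene names. I830012O16Rik is the older name of Ifit3b and is measured by 2 probes, and Gm14446 is the older name of Ifit1bl1. All 6 probes were above the lower threshold of 15 units on at least 2 arrays and were therefore tested, together with 26003 others. The cells are IEC10, a single immortalized intestinal epithelial line from a transgenic mouse that carries firefly luciferase under the Mx2 promoter. All groups share this transgene, and all were grown on transwell inserts for 21 days. Microarrays of 3 groups are analysed here: untreated cells (control, replicates 2 and 3), cells given IFN-λ2 (20 ng/mL, replicates 1, 2 and 3) and cells given IFN-β (500 U/mL, replicates 1, 2 and 3), the cytokines for 9 h before RNA isolation. No age or sex of the donor mouse is given in the sources used here.

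IFIT genes are commonly silent or low in resting cells and are among the genes most rapidly transcribed after interferon. Type I interferons such as IFN-β signal through IFNAR1 and IFNAR2, and type III interferons such as IFN-λ2 through IFNLR1 and IL-10Rβ. Both receptors activate the transcription factor complex ISGF3, which binds the interferon-stimulated response element (ISRE) in the promoters of IFN-stimulated genes (ISGs). The IFIT proteins have no known enzymatic activity. IFIT1 holds viral RNA whose 5′ end carries a triphosphate or a cap without 2′-O-methylation and keeps it from being translated, while IFIT2 and IFIT3 form complexes with each other and with related family members. In the mouse, the genes lie side by side on chromosome 19 and include duplicated copies such as Ifit3b beside Ifit3 and the Ifit1-like genes Ifit1bl1 and Ifit1bl2.

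The promoters of the members are shown because all members rose with both cytokines and most share one motif. RefSeq windows on GRCm38.p6, which reach from 250 bases before to 50 bases after each annotated start site, were found for all 5 genes, with 2 start sites each for Ifit1bl1 and Ifit2. They were searched on both strands for the ISRE core GAAANNGAAA, where N is any base. Printed below are the 250 bases before the start site, on the strand of the gene, with the ISRE core in capitals. It reads TTTCNNTTTC where it lies on the opposite strand. The stretches are chr19:34640639-34640888 on the plus strand for Ifit1, chr19:34583279-34583528 on the plus strand for Ifit3, chr19:34607707-34607956 on the plus strand for Ifit3b, and chr19:34599428-34599677 (site 1) and chr19:34601969-34602218 (site 2), both on the minus strand, for Ifit1bl1.
Ifit1: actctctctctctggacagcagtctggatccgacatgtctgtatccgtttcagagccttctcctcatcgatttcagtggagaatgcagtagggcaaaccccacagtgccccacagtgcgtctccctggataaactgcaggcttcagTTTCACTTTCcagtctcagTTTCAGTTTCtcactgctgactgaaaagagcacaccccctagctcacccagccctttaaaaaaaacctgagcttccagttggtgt
Ifit3: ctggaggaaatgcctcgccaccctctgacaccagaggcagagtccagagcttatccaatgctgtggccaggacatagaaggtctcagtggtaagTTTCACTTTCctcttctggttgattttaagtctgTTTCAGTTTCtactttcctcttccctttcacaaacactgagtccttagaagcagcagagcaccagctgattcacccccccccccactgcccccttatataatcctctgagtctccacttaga
Ifit3b: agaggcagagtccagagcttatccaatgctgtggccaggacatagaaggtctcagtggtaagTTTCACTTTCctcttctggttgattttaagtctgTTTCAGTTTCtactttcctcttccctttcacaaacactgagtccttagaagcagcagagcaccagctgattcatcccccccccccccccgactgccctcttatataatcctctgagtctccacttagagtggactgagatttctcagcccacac
Ifit1bl1, site 1: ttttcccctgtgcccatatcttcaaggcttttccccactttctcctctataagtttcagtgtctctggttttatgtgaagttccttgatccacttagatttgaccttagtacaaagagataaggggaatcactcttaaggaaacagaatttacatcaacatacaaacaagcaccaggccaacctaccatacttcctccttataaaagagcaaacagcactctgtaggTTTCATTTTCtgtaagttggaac
Ifit1bl1, site 2: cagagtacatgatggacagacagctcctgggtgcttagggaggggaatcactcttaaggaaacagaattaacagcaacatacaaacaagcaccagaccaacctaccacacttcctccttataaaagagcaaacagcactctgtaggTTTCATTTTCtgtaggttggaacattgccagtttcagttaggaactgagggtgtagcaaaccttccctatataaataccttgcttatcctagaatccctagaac

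The windows of Ifit1, Ifit3 and Ifit3b each held 2 ISRE cores, and each window of Ifit1bl1 held 1. In all of RefSeq's 32851 windows of this length, 3.44% held at least 1 such core and 0.225% held 2 or more. Read in the direction of the motif, Ifit1, Ifit3 and Ifit3b carried the same pair of cores, GAAAGTGAAA farther from the start site and GAAACTGAAA nearer to it. In Ifit1 these began 104 and 85 bases before the start site, in Ifit3 156 and 122, and in Ifit3b 188 and 154. The core of Ifit1bl1, GAAAATGAAA, began 23 bases before the first of its start sites and 104 before the second. In 274 aligned positions, the windows of Ifit3 and Ifit3b were identical at 259, or 94.5%, with 169 bases in an unbroken run. The windows of Ifit1bl1 were identical at 173 of 179 aligned positions, although their start sites lie 2541 bases apart. Neither window of Ifit2 held the letters of the core, which says only that they are absent from these 2 stretches. One of the Ifit2 windows held the form TTCNNNGAA of the gamma-activated sequence, found in 8.30% of all windows and in no window of the other members, and it does not overlap an ISRE core. Ifit1bl2, which is not among the members, starts 146 bases from Ifit1 on the opposite strand. The windows of these neighbours share 245 bases, so that one of the Ifit1bl2 windows holds the same 2 cores as Ifit1.

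**Figure D1:**
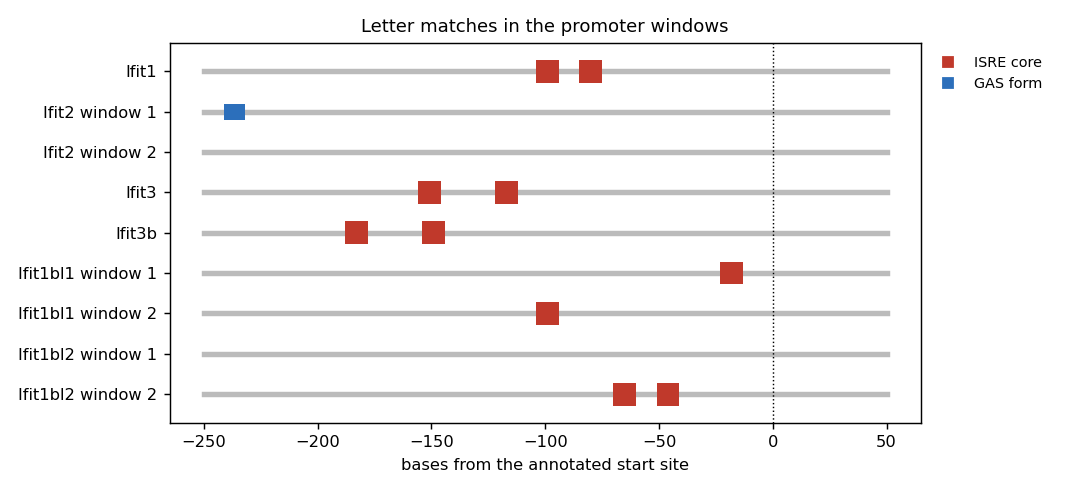
Position of letter matches in the promoter windows, in bases from the annotated start site (dotted line at 0), with 1 grey bar per window and red boxes for the ISRE core GAAANNGAAA on either strand and a blue box for TTCNNNGAA. Ifit1, Ifit3, Ifit3b and one window of Ifit1bl2 hold 2 cores, the windows of Ifit1bl1 hold 1 and those of Ifit2 hold 0.

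All 6 probes rose with both cytokines. Values are intensities in normalized gPS units, the background-subtracted green signal of a probe after each array was scaled to a 75th percentile of 1500, so that they give a probe's share of the array's signal and do not tell apart fewer responding cells and less RNA per cell. Compared with control, IFN-λ2 raised 6 of 6 probes and IFN-β 6 of 6 (limma, adjusted p under 0.05 over all probes tested), while 10.1% of the 26009 probes were raised by IFN-λ2 and 1.42% by IFN-β. By a plain 2-group t-test at an unadjusted p under 0.001 and a 2-fold change, 5 and 4 of the 6 passed, with or without an added q-value threshold of 0.05, and those that did not were Gm14446 with each cytokine and Ifit2 with IFN-β. Of all probes, 1.14% and 0.6% were higher by this t-test. IFN-λ2 changed the 6 probes by 4.32-fold to 20.7-fold over control and IFN-β by 3.09-fold to 14.2-fold. Their medians over the 5 genes were 4.21 and 3.31 on the log2 scale, against 0.00 and 0.02 over all probes tested. The first of these medians is the value of Gm14446, whose control signal was well above background on 1 of 2 arrays. Its log2 change was 2.71 with normexp, a background correction that was run here with an offset of 50 units added to every feature before scaling. For all 6 probes, each array of stimulated cells lay above both control arrays, which was the case for 25.0% of all probes with IFN-λ2 and for 14.9% with IFN-β. The comparisons with control share the 2 control arrays, and nothing in the labels says that replicates came from separate cultures, so that p-values measure the spread between these arrays, which may be technical.

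**Figure D2:**
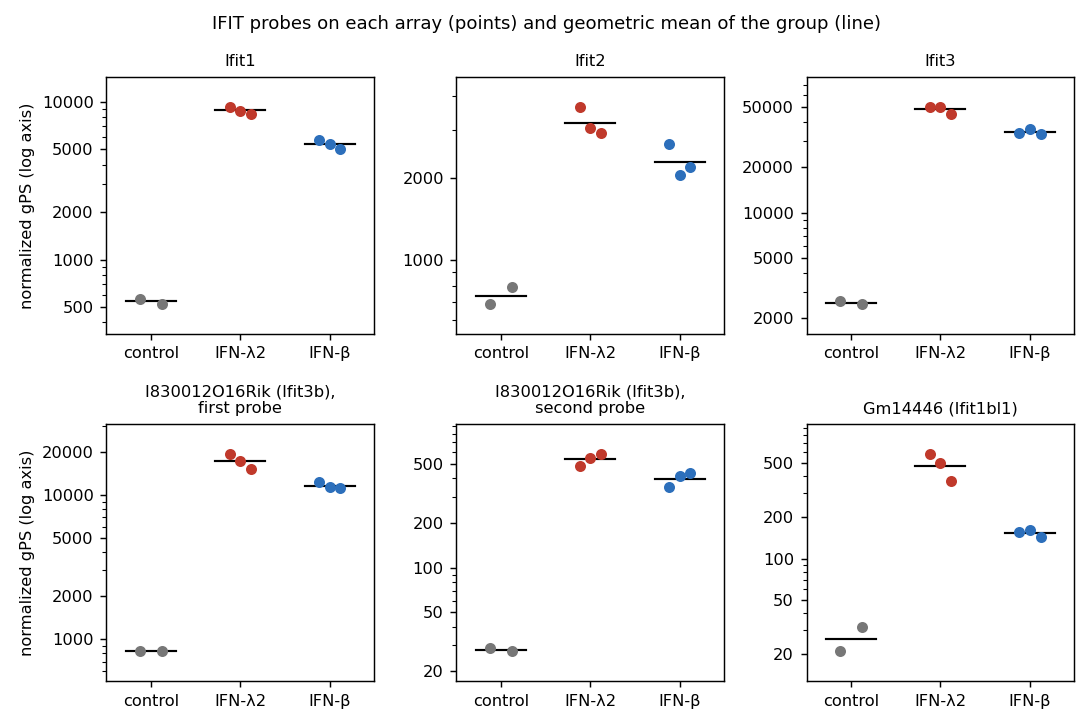
Normalized gPS units (log axis, a different range in each panel) of the 6 IFIT probes on the 2 control, 3 IFN-λ2 and 3 IFN-β arrays, with points for arrays and a line for the geometric mean of the group. In each panel the control arrays are lowest and the IFN-λ2 arrays lie above all IFN-β arrays.

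Ifit1, the family member that binds foreign RNA ends, was measured by a probe on chromosome 19 of mm9 (34723796 to 34723855, plus strand). Its intensity was 565 and 522 units in the control, 9324, 8802 and 8424 units after IFN-λ2 and 5771, 5384 and 5059 units after IFN-β. The 3 groups were separate, and the arrays of a group differed little. The increase was 16.3-fold with IFN-λ2 (log2 change 4.03, 95% interval 3.82 to 4.23, adjusted p = 1.79e-06 from limma) and 9.94-fold with IFN-β (log2 change 3.31, 95% interval 3.1 to 3.52, adjusted p = 5.64e-06 from limma). Ifit1 thus reached a level after IFN-λ2 that was 1.64-fold that after IFN-β (log2 difference 0.71, 95% interval 0.53 to 0.90, adjusted p = 0.00252 from limma).

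Ifit3, which stabilizes complexes of IFIT proteins, was measured at 34663105 to 34663164 on the plus strand of the same chromosome. The probe gave 2590 and 2482 units in the control, 50521, 50223 and 45331 units after IFN-λ2 and 33830, 36000 and 33526 units after IFN-β. Its control values thus already lay above the 75th percentile of 1500 to which each array was scaled. As for Ifit1, the groups did not overlap and IFN-λ2 was highest. The log2 changes over control were 4.26 with IFN-λ2 (95% interval 4.07 to 4.45, 19.2-fold, adjusted p = 1.79e-06 from limma) and 3.76 with IFN-β (95% interval 3.58 to 3.95, 13.6-fold, adjusted p = 4.62e-06 from limma). The difference between the cytokines was 0.50 (95% interval 0.33 to 0.67, 1.41-fold, adjusted p = 0.00665 from limma).

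I830012O16Rik, or Ifit3b, is the near copy of Ifit3 whose promoter is set beside it above. Both of its probes lie on the plus strand, at 34687522 to 34687581 and at 34687797 to 34687856, 215 bases apart. Neither shares a run of more than 8 bases with the 60-base probe of Ifit3, and the array's annotation assigns them to Ifit3b alone. The Ifit3b probes share no more than 8 bases with each other either, since they cover different stretches. The comparison of probes therefore cannot tell whether they also bind the Ifit3 transcript, which was not tested. The first probe gave 832 and 824 units in the control, 19313, 17093 and 15263 units after IFN-λ2 and 12257, 11413 and 11157 units after IFN-β. The second, which is the dimmer one but was well above background on all 8 arrays, gave 28.8 and 27.4 units in the control, 488, 552 and 586 units after IFN-λ2 and 352, 416 and 433 units after IFN-β. On both probes the control arrays were lowest and the IFN-λ2 arrays highest, with no overlap. IFN-λ2 raised the first probe 20.7-fold and the second 19.3-fold, and IFN-β raised them 14.0-fold and 14.2-fold (adjusted p between 2.2e-06 and 6.88e-06 from limma for these 4 values). With normexp correction the log2 changes of the second probe were 2.71 and 2.28 in place of 4.27 and 3.83. The offset of 50 units in that correction exceeds the control values of this probe and lowers its fold by arithmetic. Between the cytokines, the first probe differed by 0.56 on the log2 scale (95% interval 0.34 to 0.79, 1.48-fold, adjusted p = 0.0127 from limma) and the second by 0.44 (95% interval 0.19 to 0.69, 1.36-fold, adjusted p = 0.0437 from limma). Without IFN-β replicate 3 the adjusted p of the first was 0.0533. That of the second was above 0.05 when any 1 of the 8 arrays was left out, reaching 0.129 at most, and was 0.0515 with normexp.

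Gm14446, or Ifit1bl1, is a mouse relative of Ifit1 that lies on the minus strand (probe at 34667950 to 34668009). Its intensity was 21.0 and 31.4 units in the control, 584, 497 and 370 units after IFN-λ2 and 157, 163 and 143 units after IFN-β. Again the groups were separate, with the IFN-λ2 arrays spread more widely than the IFN-β arrays, and only 1 of the 2 control arrays measured the probe well above background. Gm14446 rose 18.5-fold with IFN-λ2 (log2 change 4.21, 95% interval 3.67 to 4.75, adjusted p = 6.09e-05 from limma) and 6.0-fold with IFN-β (log2 change 2.59, 95% interval 2.04 to 3.13, adjusted p = 0.00145 from limma). With normexp the log2 changes were 2.71 and 1.33, and with a floor of 50 units they were 3.25 and 1.62. The direct difference between the cytokines was 1.62 (95% interval 1.14 to 2.11, 3.08-fold, adjusted p = 0.0042 from limma), and 1.38 with normexp.

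Ifit2, which in addition to binding other IFIT proteins is known for promoting cell death, was measured at 34650244 to 34650303 on the plus strand. Its values were 687 and 792 units in the control, 3642, 3045 and 2910 units after IFN-λ2 and 2654, 2040 and 2189 units after IFN-β. The arrays of the cytokines lay close together, with 256 units between the lowest after IFN-λ2 and the highest after IFN-β. Ifit2 rose 4.32-fold with IFN-λ2 (log2 change 2.11, 95% interval 1.76 to 2.46, adjusted p = 0.000224 from limma) and 3.09-fold with IFN-β (log2 change 1.63, 95% interval 1.27 to 1.98, adjusted p = 0.00176 from limma). These were the smallest increases among the 5 members, except that with IFN-β the log2 change of Gm14446 was smaller with normexp (1.33 against 1.54) and nearly the same with a floor of 50 units (1.62 against 1.63). The difference of 0.48 between the cytokines (95% interval 0.17 to 0.80, 1.40-fold) did not pass the test over all probes (adjusted p = 0.0663 from limma). With the replicate number as a block, the same difference did pass (adjusted p = 0.0307 from limma), so that 6 of 6 probes passed in a fit that called 4.09% of all probes higher after IFN-λ2.

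**Figure D3:**
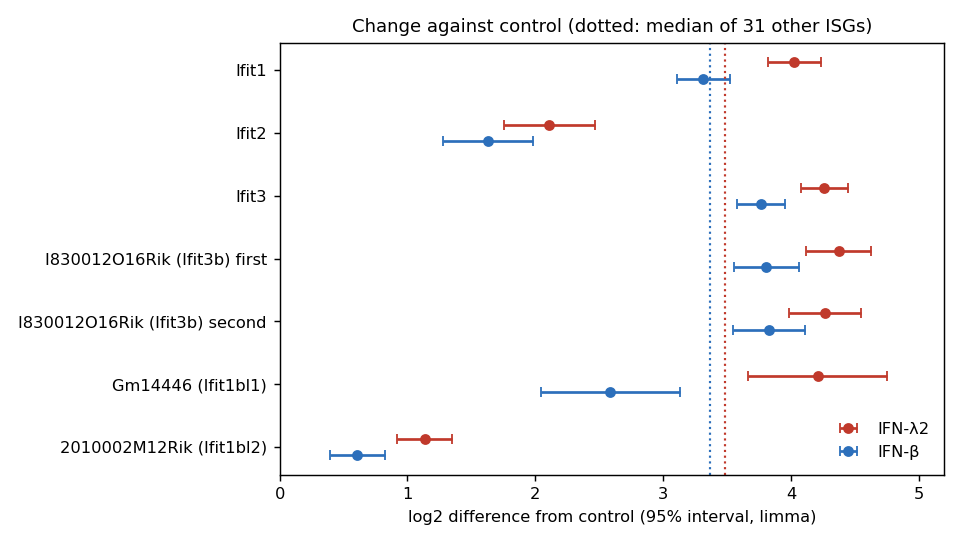
Log2 difference from control of the 6 IFIT probes and of Ifit1bl2 with IFN-λ2 (red) and IFN-β (blue), with 95% intervals from limma, and the medians of 31 other ISGs as dotted lines. Ifit2 and Ifit1bl2 lie left of both dotted lines, the IFN-β points of Ifit1 and Gm14446 (Ifit1bl1) lie left of the IFN-β line, and the intervals of the cytokines overlap for Ifit2 and for the second Ifit3b probe and for no other probe shown.

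When the cytokines were compared directly, 5 of 6 probes, which stand for 4 of 5 genes, gave the higher signal after IFN-λ2, compared with 5.64% of all probes tested. Without IFN-β replicate 3 this number was 3, with a 2-fold change required it was 1, and by the t-test it was 0, where 0.777% of all probes passed. That t-test also requires a 2-fold change. At an adjusted p under 0.05 alone it called 3 of the 6, for which the share of all probes was not computed. Each IFN-λ2 array exceeded each IFN-β array for 6 of 6 probes, which held for 16.4% of all probes. The median difference over the 5 genes was 0.56 on the log2 scale and that over all probes was -0.01. Arrays of the same replicate number shared a slide, and on each of the 3 slides all 6 probes were brighter after IFN-λ2 than after IFN-β. The within-slide log2 differences lay between 0.69 and 0.74 for Ifit1, 0.41 and 0.58 for Ifit2, 0.44 and 0.58 for Ifit3, 0.45 and 0.66 for the first and 0.41 and 0.47 for the second probe of I830012O16Rik, and 1.37 and 1.89 for Gm14446. Against control, the 2 slides with a control array gave log2 changes of 3.56 and 4.57 for Gm14446 with IFN-λ2 and 2.19 and 2.95 with IFN-β, the widest gap between slides among the members. Each group had the same position on every slide, and the cytokines were dosed in different units, so that position, dose and kind of cytokine cannot be told apart.

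The members were also set against one another in this comparison. For each pair of genes, the log2 difference between their brightest probes was formed within each array and compared between the 3 IFN-λ2 and 3 IFN-β arrays. The difference between the cytokines was 0.91 larger on the log2 scale for Gm14446 than for Ifit1 (95% interval 0.47 to 1.35 from the pooled SD). Against Ifit2 the value was 1.14 (0.67 to 1.62), against Ifit3 1.13 (0.71 to 1.54) and against I830012O16Rik 1.06 (0.75 to 1.37). In these 4 pairs the arrays of the cytokines did not overlap, and the two-sided exact permutation p was 0.1, the smallest that 3 arrays against 3 allow, so that no pair could pass at 0.05, or 0.167 after Benjamini-Hochberg adjustment over 10 pairs. With normexp the 4 values were 0.65, 0.92, 0.92 and 0.81. For Ifit1 the value was 0.21 against Ifit3 (0.03 to 0.40) and 0.15 against I830012O16Rik (-0.01 to 0.31), also without overlap. Pairs without overlap were thus 6 of 10 (5 with normexp and 5 with quantile normalization), of which 4 share the probe of Gm14446, while 34.6% of all pairs among 20866 tested genes did not overlap. The remaining 4 pairs overlapped. For Ifit3 and its near copy I830012O16Rik the difference was -0.07, with an interval from -0.29 to 0.16. Taken within slides, a calculation added after the data were seen, 9 of 10 pairs had the same sign on all 3 slides, compared with 54.8% of all pairs of tested genes. The pairs are not independent, since 4 share Gm14446. Some values lay near 0, such as -0.1997, -0.0047 and -0.0415 for Ifit2 minus I830012O16Rik. Ifit1 minus Ifit2, which overlapped between arrays, was 0.24, 0.13 and 0.33 for replicates 1, 2 and 3. With 3 slides the smallest two-sided exact p from turning signs is 0.25.

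Across the 8 arrays, Ifit3 and I830012O16Rik also had the most similar profiles of any 2 members. After each profile was centred on its own mean, their root mean square difference was 0.084 on the log2 scale. Whether the probes of one gene also bind the transcript of the other was not tested. Ifit2 was farthest from the others, at 0.79 to 0.97, and Gm14446 lay 0.47 from Ifit1 and 0.58 and 0.59 from I830012O16Rik and Ifit3. Among 16102 other genes that were well above background on all arrays, the 5 profiles nearest to the mean of the members were those of Ifi207 (AI607873 on the array), a PYHIN protein gene, at 0.081, Tgtp2, a T-cell specific GTPase gene, at 0.223, Cmpk2, a nucleotide kinase gene, at 0.226, and the GTPase genes Ifi47 and Irgm2 at 0.232 and 0.233. Ifit1 was nearest to Tgtp2 (0.109), Cmpk2 (0.124) and Ifi207 (0.127). The profile of Ifit2 had other neighbours, namely Spats2l (0.152), the immunoproteasome subunit gene Psmb8 (0.178) and the peptide transporter gene Tap1 (0.182). Ifit3 was nearest to Gbp6, a guanylate-binding protein gene (0.129), Tgtp2 (0.142) and Trim30d (0.150), and I830012O16Rik to Mpeg1 (0.110), Trim30d (0.160) and Gbp6 (0.174). For Gm14446 no gene came closer than 0.339, the distance of Slfn2, followed by Phf11b (0.349) and Ifi207 (0.376). Unlike these genes, Gm14446 was well above background on only 1 of 2 control arrays, so that its distances rest in part on dim values. These distances describe the arrays and were not tested, and profiles with 3 group levels can resemble each other through those levels alone.

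A list of 31 other ISGs was set beside the members, each by its brightest probe. All 31 were higher than control with IFN-λ2 and with IFN-β, with median log2 changes of 3.49 and 3.36. With IFN-λ2 the highest changes were those of the 2′-5′-oligoadenylate synthetases Oas2 (6.60) and Oas3 (5.38) and of the nucleic acid sensor Zbp1 (5.26), and the lowest those of the transcription factor gene Irf1 (1.14), the ISG15 ligase gene Herc6 (1.42) and Trim25 (1.54). With IFN-β they were Oas2 (5.22), Zbp1 (5.14) and Oasl2 (4.61) at the top and Irf1 (0.86), Trim25 (1.35) and Ifi27l2a (1.51) at the bottom. Of the members, Ifit1, Ifit3 and I830012O16Rik lay above the median of the list with IFN-λ2, and Ifit3 and I830012O16Rik did with IFN-β. Gm14446, at 4.21 with IFN-λ2, lay above the median here but below it with normexp (2.71 against 3.43) and with a floor of 50 units (3.25 against 3.49). Ifit1, at 3.31 with IFN-β, lay below the median here but above it with quantile normalization and without either control array. Between the cytokines, 8 of the 31 were higher after IFN-λ2, 0 were lower and 23 did not pass by limma, while 13 of the 31 differed at an unadjusted p under 0.05. The median difference was 0.19 and the range was from -0.21 to 1.38. The highest were Oas2 (1.38), Ifi27l2a (1.28) and the viperin gene Rsad2 (0.98), and the lowest Bst2 (-0.21), Irf7 (-0.18) and Ifi35 (-0.16). The difference of Gm14446, 1.62, lay above those of the 31, but with normexp it was 1.38 and that of Oas2 1.37. Outside the list, the genes with the profiles nearest to Gm14446 differed as much, Slfn2 by 1.66 and Phf11b by 1.69. The members were not tested against the list.

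**Figure D4:**
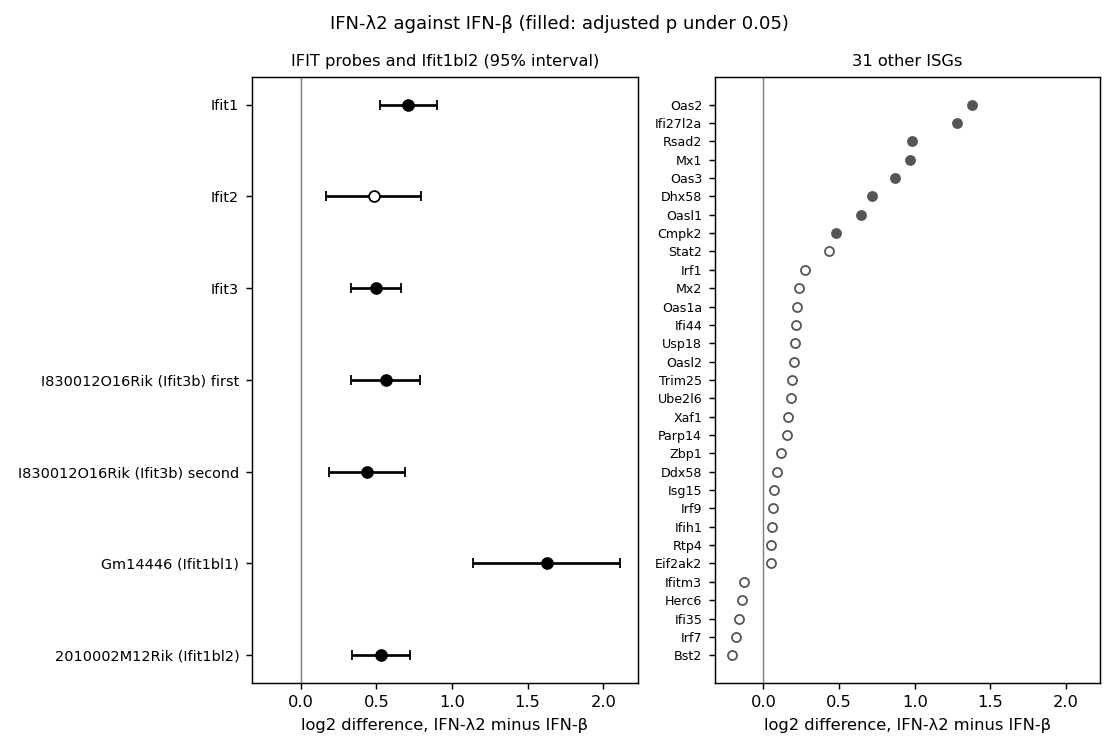
Log2 difference, IFN-λ2 minus IFN-β, for the 6 IFIT probes and Ifit1bl2 (left, with 95% intervals from limma) and for 31 other ISGs (right, each by its brightest probe), with filled points at an adjusted p under 0.05. On the left, Ifit2 is the open point and Gm14446 (Ifit1bl1) lies at 1.62, and on the right 8 points are filled.

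The probes of the family and of Ifit1bl2 span 73.6 kb of chromosome 19, and the genes on either side were examined for changes of their own. Ifit1bl2, named 2010002M12Rik on the array (34691566 to 34691625, minus strand), had 644 and 549 units in the control, 1310, 1235 and 1380 units after IFN-λ2 and 916, 908 and 891 units after IFN-β. Its groups did not overlap, but its increases of 2.20-fold (IFN-λ2) and 1.52-fold (IFN-β), with adjusted p of 0.000387 and 0.0239 from limma, were below those of all 5 members. One of its promoter windows is the one that overlaps that of Ifit1. Set against IFN-β, its level after IFN-λ2 was 1.44-fold (adjusted p = 0.00891 from limma). Of 8 neighbours that are not IFIT genes, Stambpl1, a deubiquitinase gene, was higher with IFN-λ2 than control (log2 change 0.74, adjusted p = 0.0298 from limma). At an unadjusted p under 0.05, 2 of the 8 differed from control with IFN-λ2 and 5 between the cytokines. With IFN-β, 0 of the 8 passed by limma and 0 at an unadjusted p under 0.05, and the lowest adjusted p from limma was 0.428, for Slc16a12. By the t-test 0 passed, but none reached the 2-fold change that it requires. That gene, which encodes a monocarboxylate transporter and is the next measured one beyond Ifit1, was higher after IFN-λ2 than after IFN-β (log2 difference 0.45, adjusted p = 0.0229 from limma), with log2 changes of 0.22 and -0.24 from control that did not pass. The other 6, Ch25h, Lipa, Pank1, Kif20b, Acta2 and Fas, passed in none of the 3 comparisons. Ch25h was well above background on only 1 array of each group and at the threshold of 15 units on others, so that a change could hardly be measured.

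**Figure D5:**
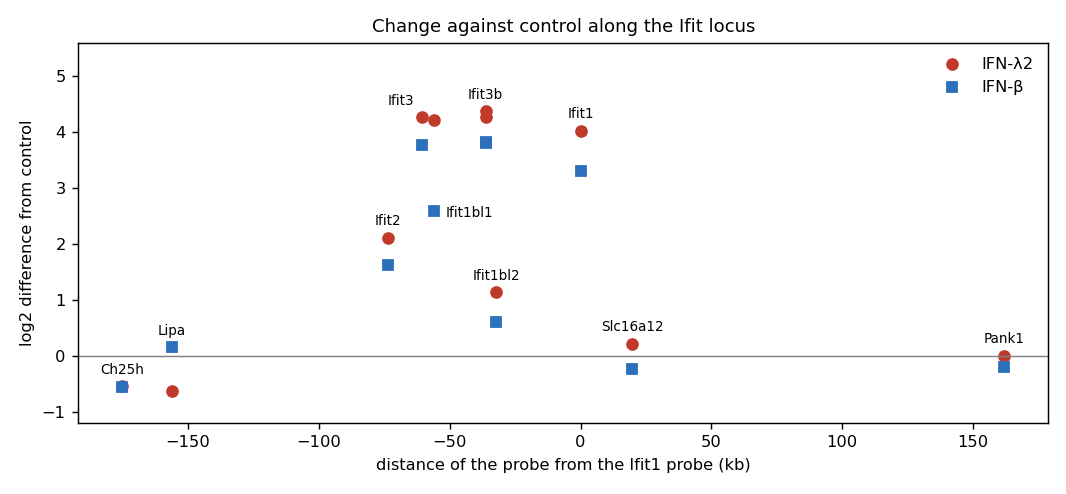
Log2 difference from control with IFN-λ2 (red circles) and IFN-β (blue squares) against the distance of each probe from the Ifit1 probe, in kb on mm9. From Ifit2 at -73.6 kb to Ifit1 at 0 kb all points lie above 0, while Ch25h, Lipa, Slc16a12 and Pank1 on either side lie between -0.63 and 0.22. Ch25h was well above background on only 1 array of each group.

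Genes that act with the IFIT proteins were examined next. Of 10 genes for translation initiation factor eIF3, cap methylation and RNA signalling, 5 rose above control with IFN-λ2, 1 rose with IFN-β and 0 differed between the cytokines by limma, with 2 at an unadjusted p under 0.05. Of all probes tested, 10.1% rose with IFN-λ2 and 1.42% with IFN-β. By the t-test, which requires a 2-fold change, 0 of the 10 passed in any of the 3 comparisons. With both cytokines, Cmtr1 (Ftsjd2 on the array), whose product adds the 2′-O-methyl group that keeps cellular caps from IFIT1, was higher, by 0.53 with IFN-λ2 and 0.57 with IFN-β on the log2 scale (adjusted p = 0.00326 and 0.00927 from limma). The others that were higher with IFN-λ2 were Syncrip (0.62), which encodes an RNA-binding protein, Eif3a (0.44), which encodes the largest eIF3 subunit, the kinase gene Tbk1 (0.36) and the second cap methyltransferase gene Cmtr2 (0.31, Ftsjd1 on the array). With IFN-β the log2 changes of these genes were 0.53, 0.15, 0.18 and 0.10 in the same order and did not pass. Of the receptor and kinase genes Ifnlr1 (Il28ra on the array), Il10rb, Ifnar1, Ifnar2, Jak1 and Tyk2, 0 of 6 passed in any comparison by limma, with log2 changes from control between -0.29 and 0.16. At an unadjusted p under 0.05, 0 of these 18 values passed. By the t-test 0 passed as well, but none reached the 2-fold change that it requires, so that it could not have called any.

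The label of an epithelial line was checked against marker genes. Of 8 epithelial markers, 8 were well above background on all arrays, with summed levels of 306153 to 320740 units in the control, 330342 to 355601 after IFN-λ2 and 299409 to 337679 after IFN-β. With IFN-λ2, Cdh1 and Krt19 were higher than control and Cldn3 and Cldn4 lower, and after IFN-λ2 Krt19 was higher (log2 difference 0.59, adjusted p = 0.00579 from limma) and Cldn4 lower (-0.36, adjusted p = 0.0319 from limma) than after IFN-β. Most of the epithelial sum came from Krt18, while the brush border gene Vil1 had 64.0 units on average in the control, and sums over different probes cannot be set against each other. Of 12 markers of leukocytes, endothelium and stroma, 4 were well above background on all arrays and 2 on none, and their summed levels were 10871 to 14525, 8709 to 11003 and 9254 to 16515 units. Most of these sums came from the myeloid genes Itgam and Csf1r, with mean levels in the control of 7133 units for Itgam and 5178 for Csf1r. After IFN-λ2 their means were 2878 (Itgam) and 6413 units (Csf1r), while IFN-β gave 6714 (Itgam) and 5621 units (Csf1r). By test, 0 of the 8 that were tested passed in any comparison by limma or by the t-test, with 6 of 24 values at an unadjusted p under 0.05. The B cell marker Ms4a1 and the fibroblast marker Pdgfra were at the lower threshold of 15 units on all arrays, and the pan-leukocyte marker Ptprc was well above background on 2 arrays of IFN-β and on no other. The part of other cell types in the values of the IFIT genes was not tested. Of 6 housekeeping genes, 0 passed in any comparison by limma, with 1 of 18 values at an unadjusted p under 0.05. By the t-test 0 passed, but none reached the 2-fold change that it requires. The scanner software marked 20991 to 24252 probes per array as well above background, no probe was saturated, and the precision is limited by the number of arrays, with 2 for the control.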

How the data were processed

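RNA of IEC10 cells was labelled with Cy3 and hybridized to 1-color Agilent whole mouse genome arrays. The sample labels name Trizol for RNA isolation and the methods the RNeasy Mini Kit. The authors deposited scanner output (Feature Extraction 10.7.3.1), with the intensity of each feature after background subtraction, and a table of scaled intensities. In the deposited table the members have the same values up to a factor of 0.909 to 0.926 per array. The array files give mm9 coordinates.

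Following the methods, flagged, outlying or uneven features were left out (313 to 424 per array), probe copies were averaged geometrically, and each array was scaled to a 75th percentile of 1500 and floored at 15 units. Probes above 15 units on at least 2 arrays, 26009 of 39429, were log2-transformed and fitted over the 3 groups with limma 3.58.1 (R 4.3.3) on all 8 arrays without a block. P-values were adjusted by Benjamini-Hochberg over all probes, and a probe is called at an adjusted p under 0.05. Medians, distances, exact permutation tests and promoter searches were computed in Python 3.11.15 with numpy 2.4.6, pandas 2.3.3 and scipy 1.17.1. The fit was tested on simulated data of 26009 probes with independent noise and 200 of them shifted, with 2 to 10 false calls. It recovered 45% of log2 shifts of 0.7 and 95% of log2 shifts of 2 for IFN-λ2 against IFN-β. The shares were 39.5% and 88.5% for IFN-λ2 against control, and 37% and 90.5% for IFN-β against control. In the data more probes were called higher, 1466, 2621 and 369 in these comparisons, so that the simulated rates need not hold for them. The RefSeq gene table used for current symbols and promoters is of GRCm38.p6, and no coordinates were converted between builds.

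All probes of the members are given. From the other lists, the 3 highest and 3 lowest ISGs per comparison, every partner, receptor or neighbour that passed, and the nearest profiles (5 to the mean of the members, 3 to each member) are named. The receptor and kinase genes, Ch25h, Lipa, Pank1, Kif20b, Acta2, Fas and the markers are named beyond that rule. The members and lists were chosen with earlier results of these data known. One more ISG was left out of the list and is not reported here.

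Replicate numbers coincide with slides. The deviations from the group means of same-numbered IFN-λ2 and IFN-β arrays correlated at 0.27, 0.22 and 0.39 across 22213 probes for replicates 1, 2 and 3. Between unlike numbers the highest correlation was 0.05. These numbers thus pair the arrays of the cytokines, and a shared slide and a shared replicate cannot be told apart. The 2 control arrays correlated with their partners at -0.15 and -0.12 (IFN-λ2) and at 0.16 and -0.22 (IFN-β). Control replicate 3 correlated with IFN-β replicate 1 at 0.32, so that no pairing with the control was seen. No probe above 15 units had the same value on any 2 replicates. A control replicate 1 was not analysed here. Alternatives tried in the processing were quantile normalization, background correction with normexp and an offset of 50, a floor of 50 units or none, other filters and the deposited table. Those tried in the fit were a replicate block, a variance trend, only the compared groups, leaving out each array, averaging probes, a 2-fold requirement and a plain t-test. The t-test takes its p of 0.001 and 2-fold change from the methods, which state a q-value of 0.05 as well and do not name the test.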

Additional observations from a re-analysis of the deposited data

How the results depend on the processing

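No alternative turned the direction of a log2 change of an IFIT probe in any of the 3 comparisons. Among pairs of genes, Ifit2 minus Ifit3, at -0.02, was 0.0001 with normexp and 0.0079 with quantile normalization. The partner, receptor, neighbour and marker genes were not run under the alternatives other than the t-test. All 6 IFIT probes and all 31 other ISGs stayed above control with both cytokines at an adjusted p under 0.05 in limma under every background, scaling, floor and filter tried and with each array left out. With the t-test (2-fold change and p under 0.001, not adjusted), the probes above control were 5 (IFN-λ2) and 4 (IFN-β) of the 6, without Gm14446 in both and without Ifit2 with IFN-β, and 30 and 28 of the 31 ISGs. With a q-value threshold of 0.05 added after the data were seen, the ISGs with IFN-β became 12 and the other counts against control stayed the same. No gene of the partner, neighbour and marker lists passed that test. The number of IFIT probes that IFN-λ2 raised above IFN-β, 5, moved more. It was between 3 and 5 with each array left out, the 3 being without IFN-β replicate 3, it was 1 when a 2-fold change was also required, and it was 0 with the t-test, with or without the q-value. For the 31 other ISGs the corresponding number, 8, became 2 with the 2-fold requirement and 2 with the t-test, with or without the q-value. Without the 2-fold change and the p of 0.001, at an adjusted p under 0.05 alone, the t-test called 3 IFIT probes and 7 of these ISGs between the cytokines. In the paired analysis, with a replicate block, all 6 IFIT probes were brighter after IFN-λ2 than after IFN-β, since Ifit2 passed at 0.0307, and no other call of an IFIT probe changed. That fit called 4.09% of all probes tested higher after IFN-λ2. Of 378 alternative values for single IFIT probes, 349 kept their side of the threshold, 25 lost it and 4, all of Ifit2 between the cytokines, gained it. Gm14446 and the second probe of I830012O16Rik had dim control values, between 21.0 and 31.4 units. In the control, Gm14446 was well above background on 1 of 2 arrays and the second probe of I830012O16Rik on 2 of 2. Their folds over control fell with normexp and with a floor of 50 units. The offset of 50 units in normexp and the higher floor each lower the fold of such dim probes by arithmetic. What else in the correction lowered the folds was not tested.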
